A study of Mus musculus with 2 samples.

Results

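The genes described here are 10 alpha-defensins of the mouse: Defa3, Defa5, Defa17, Defa21, Defa22, Defa23, Defa24, Defa29, Defa30 and Defa35. They were chosen by symbol, and they are 10 of 31053 genes in the count tables and 10 of 28 genes there that are alpha-defensins by symbol or by RefSeq name. Their raw counts of unique molecular identifiers (UMIs, each standing for 1 captured transcript) were summed over the cells of each of the 12 cell classes that the authors assigned, separately in each of 2 libraries. The cells came from ileal crypts of Atoh1CreER-T2;R26RTom mice, labelled WT, that had received 2 doses of 1 mg/mL tamoxifen 24 h apart and were sampled 12 h after the second dose. Live Tom+ cells were sorted and made into 10x Genomics 3′ single-cell libraries. The Tom label is switched on in cells that express Atoh1, a transcription factor of secretory cells, and persists in their progeny, so the classes are Atoh1-lineage cells and not a census of the crypt. A genotype with Apc fl/fl that the protocol also names was not analysed here. The classes are PANETH, PANETH-PRE, GOBLET, GOBLET-PRE, GP, SEC-PRO, ISC, ENTERO-PRO, EEC-PRE, EC, NON-EC and TUFT, all from the same genotype and treatment. Beside them stands free RNA, the RNA outside cells that every droplet can take up, measured in barcodes absent from the authors' cell list that held 1 to 50 UMIs. These were 821694 barcodes with 1208373 UMIs in replicate 1 and 577200 with 1166363 UMIs in replicate 2. Whether each of these barcodes stands for a droplet was not tested.

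Alpha-defensins, called cryptdins in the mouse small intestine, are short cationic peptides that Paneth cells at the base of the crypt pack into granules and release into the lumen, where they kill bacteria. They are made as a precursor with a signal peptide and an acidic propeptide, and in mice the protease matrilysin, encoded by Mmp7, cuts the propeptide away to give the active peptide. Wnt signalling through beta-catenin and TCF proteins, together with Sox9, is known to drive Paneth cell maturation and cryptdin genes. All 10 members encode precursors of this kind, and no separate role is given here to any 1 of them.

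The 10 genes lie in 1 cluster on chromosome 8 (GRCm38), from Defa21 at chr8:21025545-21026516 to Defa24 at chr8:21734494-21735471, all on the plus strand except Defa29 on the minus strand at chr8:21325887-21327020. The coding sequences below are those of the members whose values the results turn on, because their likeness sets how far reads can tell these genes apart. Defa24 and Defa30, the pair with the highest levels, differ in 4 of 282 bases, and Defa21 and Defa22 in 2 of 282 bases. In the first pair, and likewise in the second, capitals mark the bases that differ between partners. In Defa17 (chr8:21655780-21656735) they mark the 12 bases at which it differs from Defa24. Defa3 (chr8:21287409-21288377) has the same coding sequence as Defa17.
Defa24: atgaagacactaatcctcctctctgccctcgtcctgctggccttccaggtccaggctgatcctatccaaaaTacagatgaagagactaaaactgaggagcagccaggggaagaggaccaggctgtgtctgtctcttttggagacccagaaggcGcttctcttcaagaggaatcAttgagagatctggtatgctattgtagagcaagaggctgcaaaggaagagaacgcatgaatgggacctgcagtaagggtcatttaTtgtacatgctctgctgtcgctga
Defa30: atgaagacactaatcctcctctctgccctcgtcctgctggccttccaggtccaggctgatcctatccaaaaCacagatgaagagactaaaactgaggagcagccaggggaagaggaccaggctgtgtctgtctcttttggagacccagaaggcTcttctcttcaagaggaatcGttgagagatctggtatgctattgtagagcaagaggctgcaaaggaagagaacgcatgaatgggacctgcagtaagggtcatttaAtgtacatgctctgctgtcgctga
Defa21: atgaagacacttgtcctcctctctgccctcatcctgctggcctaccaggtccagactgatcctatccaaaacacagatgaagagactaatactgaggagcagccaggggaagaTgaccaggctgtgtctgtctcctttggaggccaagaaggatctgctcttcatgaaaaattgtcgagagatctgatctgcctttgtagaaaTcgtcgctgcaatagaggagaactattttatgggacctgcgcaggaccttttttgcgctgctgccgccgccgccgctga
Defa22: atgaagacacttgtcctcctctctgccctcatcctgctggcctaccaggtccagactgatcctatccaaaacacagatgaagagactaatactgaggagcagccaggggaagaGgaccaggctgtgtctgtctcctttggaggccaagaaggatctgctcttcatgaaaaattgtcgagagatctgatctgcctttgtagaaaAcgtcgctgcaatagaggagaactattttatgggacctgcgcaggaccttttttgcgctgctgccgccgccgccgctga
Defa17: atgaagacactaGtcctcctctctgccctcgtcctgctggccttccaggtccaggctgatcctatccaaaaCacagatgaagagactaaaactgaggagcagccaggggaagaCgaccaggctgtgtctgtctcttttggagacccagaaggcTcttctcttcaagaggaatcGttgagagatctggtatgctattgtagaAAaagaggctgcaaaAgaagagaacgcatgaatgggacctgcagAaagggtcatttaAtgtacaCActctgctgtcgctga

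The libraries read the 3′ end of a transcript, so the last 300 bases matter most for the counts. There Defa24 and Defa30 differed in 7 bases, Defa21 and Defa22 in 4, and Defa3 and Defa17 in 1. Of the 210 possible 91-base reads in these last 300 bases, all 210 were unique to Defa24 among the 28 alpha-defensins, 208 to Defa30, 129 each to Defa21 and Defa22, and 28 each to Defa3 and Defa17. Defa29 had 210 unique reads, Defa35 148, Defa5 1 and Defa23 0. Defa23 is identical in this stretch to Defa31, which had 3 and 0 UMIs in the PANETH sums of replicates 1 and 2. Levels of Defa3, Defa5, Defa17 and Defa23 are therefore uncertain between these genes and their near copies, those of Defa21 and Defa22 less so, and how the counting treated reads that match several copies was not tested.

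RefSeq promoter sequence was found for 5 of the 10 members, and 2 are shown as the promoters with an entry that belong to each of the pairs above. They are the 250 bases before the RefSeq start of Defa21 (chr8:21025295-21025544, plus strand, GRCm38.p6) and of Defa30 (chr8:21134400-21134649, plus strand, GRCm38.p6). Capitals mark the core letters of the TCF/LEF motif, ATCAAAG, and of the TATA box, TATAAA, on either strand.
Defa21: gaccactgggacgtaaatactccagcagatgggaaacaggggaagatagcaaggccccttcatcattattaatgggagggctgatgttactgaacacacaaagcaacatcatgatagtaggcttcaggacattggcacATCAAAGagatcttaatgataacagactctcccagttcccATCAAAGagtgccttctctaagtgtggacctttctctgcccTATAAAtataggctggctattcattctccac
Defa30: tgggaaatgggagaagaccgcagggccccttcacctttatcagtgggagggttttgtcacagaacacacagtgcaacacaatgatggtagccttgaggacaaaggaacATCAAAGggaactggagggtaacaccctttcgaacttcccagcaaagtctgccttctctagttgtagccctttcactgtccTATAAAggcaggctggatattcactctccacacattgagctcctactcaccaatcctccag
The promoter of Defa22 (chr8:21162027-21162276) was identical to that of Defa21. ATCAAAG was present in 5 of the 5 members' promoters, against 3.72% of the promoters of 27025 genes of the same length. Its first base lay 112 and 72 bases before the start in Defa21 and 142 bases before it in Defa30. That of TATAAA lay 31 bases before the start in Defa21 and 61 in Defa30, a shift in the same direction. TATAAA was present in 5 of 5, against 14.3% of genes, and the E-box CAGATG in 4 of 5, against 16.3% of genes. Of 11 other alpha-defensins with an entry, ATCAAAG was present in 8, TATAAA in 10 and CAGATG in 7. The 5 members' promoters were 60.7% to 100% identical in pairs, so they are not 5 separate cases. None of these 3 motifs shares its letters with another. A match describes these letters and does not show that a factor binds there.

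Replicate 1 held 66021021 UMIs, of which 49.5% lay in 5305 listed cells, and replicate 2 held 40869800 UMIs, of which 66.1% lay in 6257 listed cells. The PANETH class had 218 and 392 cells with a median of 23375 and 12874 UMIs per cell, and the PANETH-PRE class had 226 and 316 cells with medians of 6600 and 4342.5 UMIs. The Paneth marker list summed to 91520 and 110000 CPM (counts per 1000000 UMIs of the sum) in PANETH and 51800 and 68140 CPM in PANETH-PRE, against 1302 to 8538 CPM in the other classes. The goblet list summed to 13940 and 32390 CPM in PANETH, 71900 and 79750 CPM in PANETH-PRE and 160800 and 151600 CPM in GOBLET-PRE, and its part in the results on PANETH-PRE was not tested. Of 11562 listed barcodes, 12 occurred in both libraries. Nothing in the labels tells if the 2 libraries are from different mice, so every spread and p-value below measures the spread between these 2 libraries only.

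In PANETH cells the 10 alpha-defensins made up more than all other transcripts together. Of all UMIs of the class they took 64.0% in replicate 1 and 56.7% in replicate 2, with exact (Clopper-Pearson) 95% intervals of 64.0 to 64.1 and 56.7 to 56.8. The mean was 60.4% ± 5.18 (SD, n = 2). In PANETH-PRE cells they took 21.3% and 18.1%, a mean of 19.7% ± 2.23 (SD, n = 2). With the other 18 alpha-defensins added, the family reached 71.9% and 65.5% in PANETH and 24.9% and 21.3% in PANETH-PRE. The libraries of PANETH and PANETH-PRE did not overlap. Intervals here and below cover counting error only.

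The members were far scarcer outside these classes. Their share was 2.51% and 1.71% in GOBLET, 1.19% and 1.89% in GOBLET-PRE, 1.96% and 1.37% in TUFT, and 0.861% and 1.24% in ISC, the class of intestinal stem cells. Single cells carried part of this: without the 1 of 42 GOBLET cells with most member UMIs, the share in GOBLET of replicate 1 was 1.08%, and without the top 2 of 161 TUFT cells that in TUFT of replicate 1 was 1.04%. In free RNA it was 10.4% in replicate 1 and 17.5% in replicate 2. Each of the 10 classes other than PANETH and PANETH-PRE therefore held a smaller share than the free RNA of its own library.

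Per cell the difference was wider, and PANETH cells also held more UMIs in all. A PANETH cell carried 14048 member UMIs on average in replicate 1 and 7459 in replicate 2. A PANETH-PRE cell carried 1607 and 915 on average, but the medians were 402.5 and 316, against medians of 14470 and 7218 in PANETH. The PANETH-PRE sum was thus spread unevenly over cells. Cells at or below the median of the members' share held 4.74% and 6.65% of it. The 12 and 16 cells above the 95th percentile held 26.2% and 26.25%. A GOBLET-PRE cell, from the class of goblet precursors, carried 70.8 and 64.8.

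Defa24 was the most abundant member in every class. A level below is a member's CPM, its count divided by all UMIs of the class and given in CPM, with no further scaling. The 3′ UMI counts do not grow with transcript length, but members differ in how many reads are unique to them, so an order of levels between members is firm only for wide gaps and for members with mostly unique reads. Defa24 had 265865 and 279994 CPM in PANETH and 146826 and 121810 CPM in PANETH-PRE in replicates 1 and 2, against 48309 and 88902 CPM in free RNA. Over the 20 sums of the other 10 classes it ranged between 4028 and 12674 CPM. PANETH, PANETH-PRE and the rest did not overlap, and free RNA lay between PANETH-PRE and the rest.

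Defa30, the near twin of Defa24, was next. It had 124655 and 135060 CPM in PANETH and 24747 and 24150 CPM in PANETH-PRE, against 19364 and 39572 CPM in free RNA. In PANETH-PRE it stood above free RNA in replicate 1 only.

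Defa22 and Defa21, the pair that differs in 2 coding bases, were close to each other. Defa22 had 105704 and 62119 CPM in PANETH and 11078 and 9216 CPM in PANETH-PRE, against 14787 and 18737 CPM in free RNA. Defa21 had 103037 and 49687 CPM in PANETH and 8074 and 4748 CPM in PANETH-PRE, against 14731 and 14729 CPM in free RNA. Both were lower in PANETH-PRE than in free RNA in either library, and both were lower in PANETH of replicate 2 than of replicate 1.

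Defa17 had another order. It had 11288 and 17549 CPM in PANETH and 14391 and 14912 CPM in PANETH-PRE, against 2461 and 6450 CPM in free RNA. The PANETH and PANETH-PRE libraries overlapped, and PANETH-PRE was the higher in replicate 1 and PANETH in replicate 2. Defa3, which shares its coding sequence, had 2406 and 2769 CPM in PANETH and 1968 and 1448 CPM in PANETH-PRE, without overlap.

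The other 4 members, like Defa30, were higher in PANETH than in PANETH-PRE in both libraries. Defa29 had 16815 and 13318 CPM in PANETH and 3850 and 3820 CPM in PANETH-PRE, and Defa5 had 8152 and 4226 CPM in PANETH and 1614 and 927 CPM in PANETH-PRE. Defa23 had 1899 and 2157 CPM in PANETH and 379 and 363 CPM in PANETH-PRE. Defa35, the scarcest, had 512 and 229 CPM in PANETH and 53.4 and 41.4 CPM in PANETH-PRE, and it was listed at 0 in EEC-PRE of replicate 1 and in EC and TUFT of replicate 2.

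**Figure D1:**
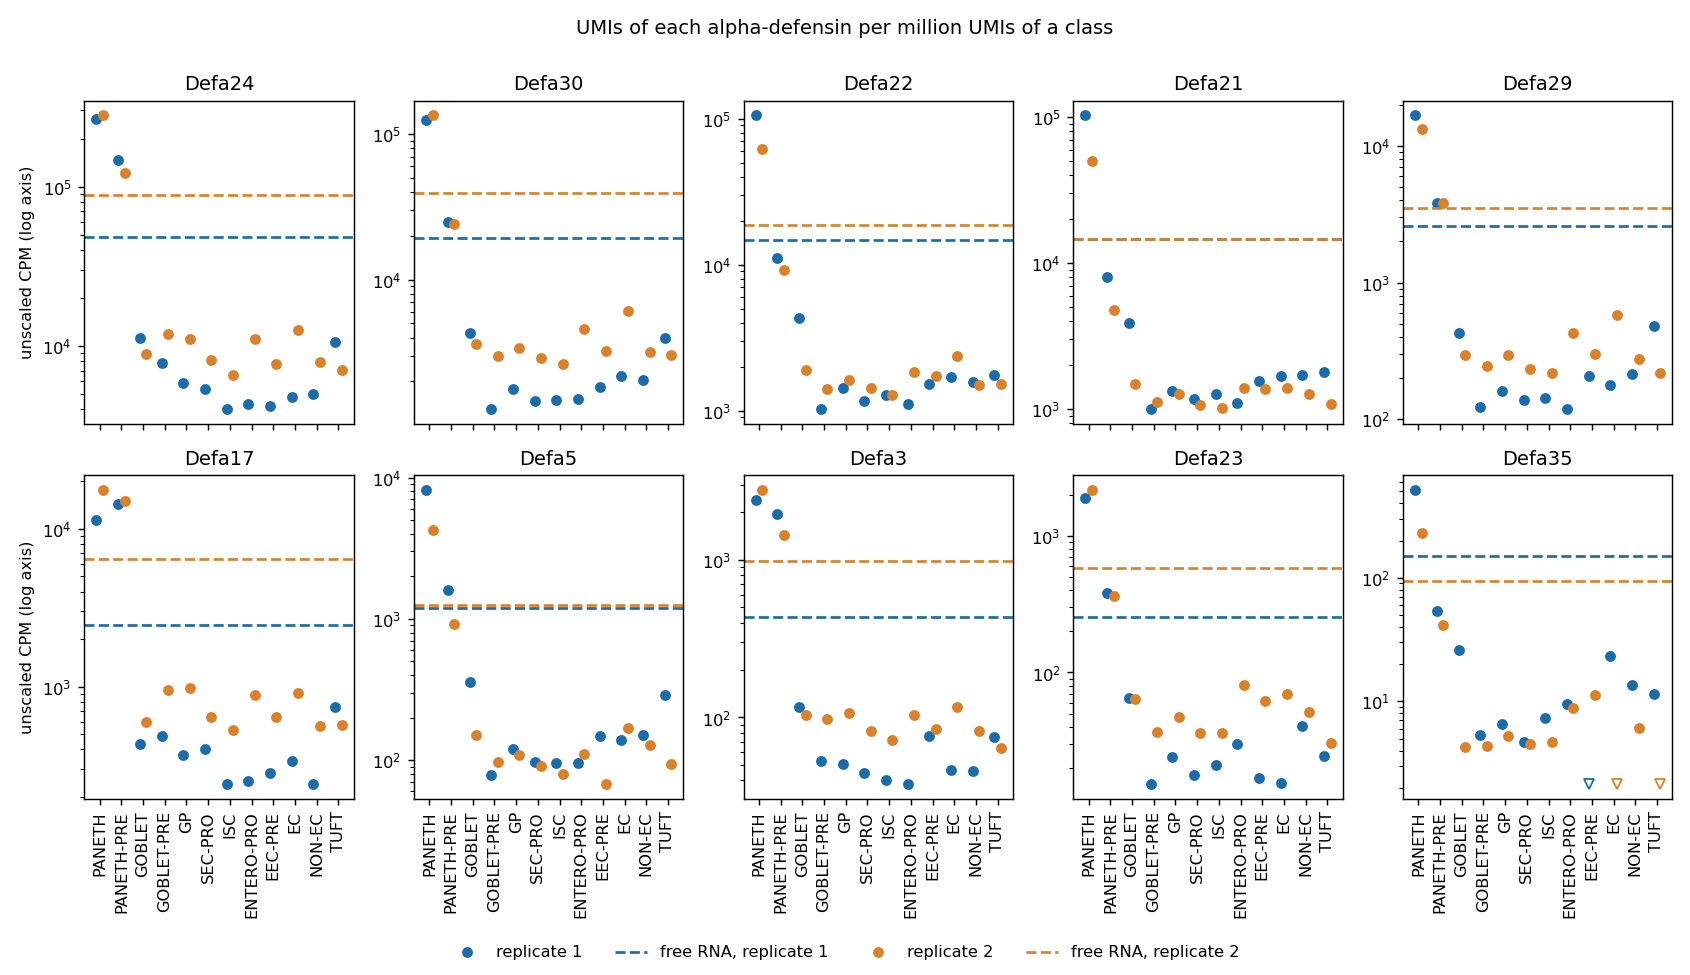
Level of each of the 10 members (CPM, log axis) in the 12 classes, with 1 point per library, dashed lines for the free RNA of each library and open triangles for sums with 0 UMIs. PANETH was the highest class for 9 members, without overlap with PANETH-PRE, and the Defa17 points of PANETH (11288 and 17549 CPM) enclose those of PANETH-PRE (14391 and 14912 CPM).

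Ranked by the mean of both libraries, PANETH stood first and PANETH-PRE second for 9 members, and their library ranges did not overlap. For Defa17, PANETH-PRE averaged 14651 ± 368 CPM and PANETH 14419 ± 4427 CPM (SD, n = 2 each). PANETH-PRE lay above the third class without overlap for 10 of 10 members. From the third rank down, 88 of 90 neighbouring classes overlapped, so no order was resolved among the other 10 classes.

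Set against the free RNA of the same library, the members in PANETH stood at 344% (Defa35) to 743% (Defa23) of its level in replicate 1 and at 243% (Defa35) to 378% (Defa29) in replicate 2. In PANETH-PRE, 7 members were above free RNA in replicate 1 and 4 in replicate 2. The 4 that were above it in both were Defa17 (585% and 231%), Defa3 (454% and 147%), Defa24 (304% and 137%) and Defa29 (149% and 108%). With barcodes of 10 to 100 UMIs as free RNA, only 1 of the 4, Defa17, stood above it in both libraries. Defa21 (54.8% and 32.2%), Defa22 (74.9% and 49.2%) and Defa35 (35.8% and 43.9%) were below it in both. In the other 10 classes, 0 of 200 values exceeded free RNA; they reached at most 30.0% of it, with a median of 8.99%. The highest share of free RNA that genes scarce in a sum allow was 4.03% to 13.4% in these classes, and 149 of the 200 values lay above the level that share of free RNA would give. In GOBLET-PRE, where the limits were 5.00% and 5.19%, 8 and 9 of the 10 members lay above it, and Defa17 stood at 19.8% and 14.8% of free RNA. In ISC, 8 and 9 of the 10 members lay above it too, although their mixture differed from that of free RNA by only 2.25% and 2.72%. The limit is the lowest value over many genes and so rests on 1 gene per sum. Many other genes can lie above it, so these counts do not tell sources apart. It was also set after the data were seen. How much of the member UMIs in these classes is free RNA was not tested further.

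The share also varied from cell to cell, and it varied most in PANETH-PRE. The median PANETH cell had 63.0% of its UMIs from the 10 members in replicate 1 and 56.5% in replicate 2, with 5th to 95th percentiles of 35.1% to 70.9% and 28.1% to 64.9%. The median PANETH-PRE cell had 7.91% and 8.58%, with percentiles of 0.740% to 48.6% and 0.996% to 41.4%. PANETH-PRE thus covered nearly the whole range between the other classes, whose medians lay between 0.675% and 1.35%, and PANETH. More than 10% of UMIs came from the members in 94 of 226 (41.6%) and 146 of 316 (46.2%) PANETH-PRE cells.

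**Figure D2:**
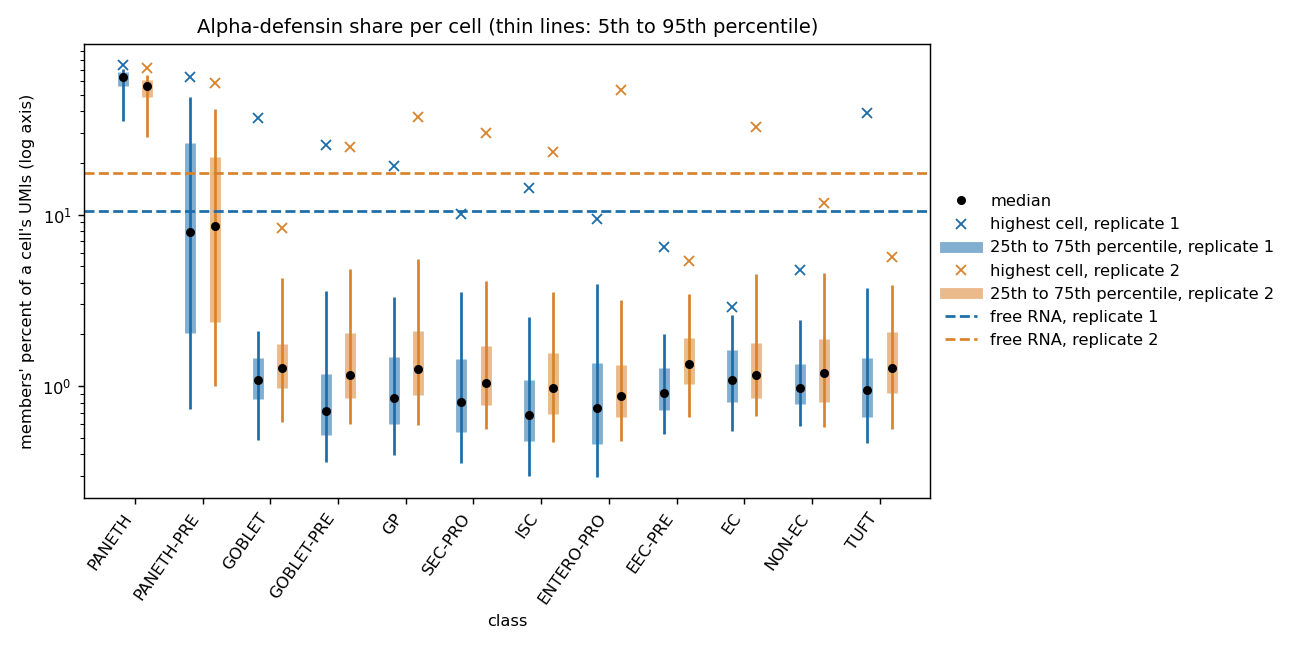
Percent of a cell's UMIs that came from the 10 members, by class and library (log axis), with dots for medians, boxes for the 25th to 75th and thin lines for the 5th to 95th percentile, crosses for the highest cell and dashed lines for free RNA. PANETH cells had medians of 63.0% and 56.5%, PANETH-PRE cells medians of 7.91% and 8.58% with a wide spread, and the other classes medians between 0.675% and 1.35%.

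Cells with many UMIs carried much of the PANETH-PRE signal. In PANETH-PRE, 25 of 226 and 29 of 316 cells had more than 2 times the class median of UMIs, and the members took 42.5% and 33.8% of UMIs in these cells, against 14.9% and 13.99% in the remaining cells. Whether these are doublets with PANETH cells was not tested, and no source used here says how the authors treated doublets.

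The mixture of members differed between the 2 Paneth classes. Of the members' summed UMIs, Defa24 made up 41.5% and 49.4% in PANETH, 68.9% and 67.1% in PANETH-PRE, and 46.3% and 50.9% in free RNA. Defa21 made up 16.1% and 8.76% in PANETH, 3.79% and 2.62% in PANETH-PRE, and 14.1% and 8.42% in free RNA. Defa24 thus led PANETH-PRE more strongly than PANETH, and Defa21 the reverse, without overlap between the classes.

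Defa30 and Defa22 were smaller shares in PANETH-PRE as well. Defa30 made up 19.5% and 23.8% in PANETH and 11.6% and 13.3% in PANETH-PRE, and Defa22 made up 16.5% and 10.95% in PANETH and 5.20% and 5.08% in PANETH-PRE. Defa17 made up 1.76% and 3.09% in PANETH and 6.76% and 8.22% in PANETH-PRE, so it joined Defa24 in taking a larger share there.

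The part of the members' sum that would have to change member to match the free RNA of the library was 5.51% and 2.16% in PANETH and 27.5% and 21.1% in PANETH-PRE. In GOBLET-PRE it was 21.1% and 13.6%, and the distance of GOBLET-PRE from PANETH-PRE was 8.08% and 8.34%. In ISC it was 2.25% and 2.72%, and in NON-EC 1.62% and 2.13%. Summed over the class, the few member UMIs in GOBLET-PRE had a mixture nearer to PANETH-PRE than to free RNA. Defa24 made up 65.7% and 63.1% of them. GOBLET-PRE cells at or below the median of the members' share differed from free RNA by only 1.71% and 2.35%. Those above the 95th percentile differed by 44.9% and 32.2%, with Defa24 at 88.8% and 80.1%, above its share in PANETH-PRE. The member UMIs in ISC and NON-EC were close to free RNA. GP (7.36% and 9.16%), SEC-PRO (9.603% and 5.403%) and TUFT of replicate 1 (10.54%) lay further from it. TUFT of replicate 2 (1.684%) did not.

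**Figure D3:**
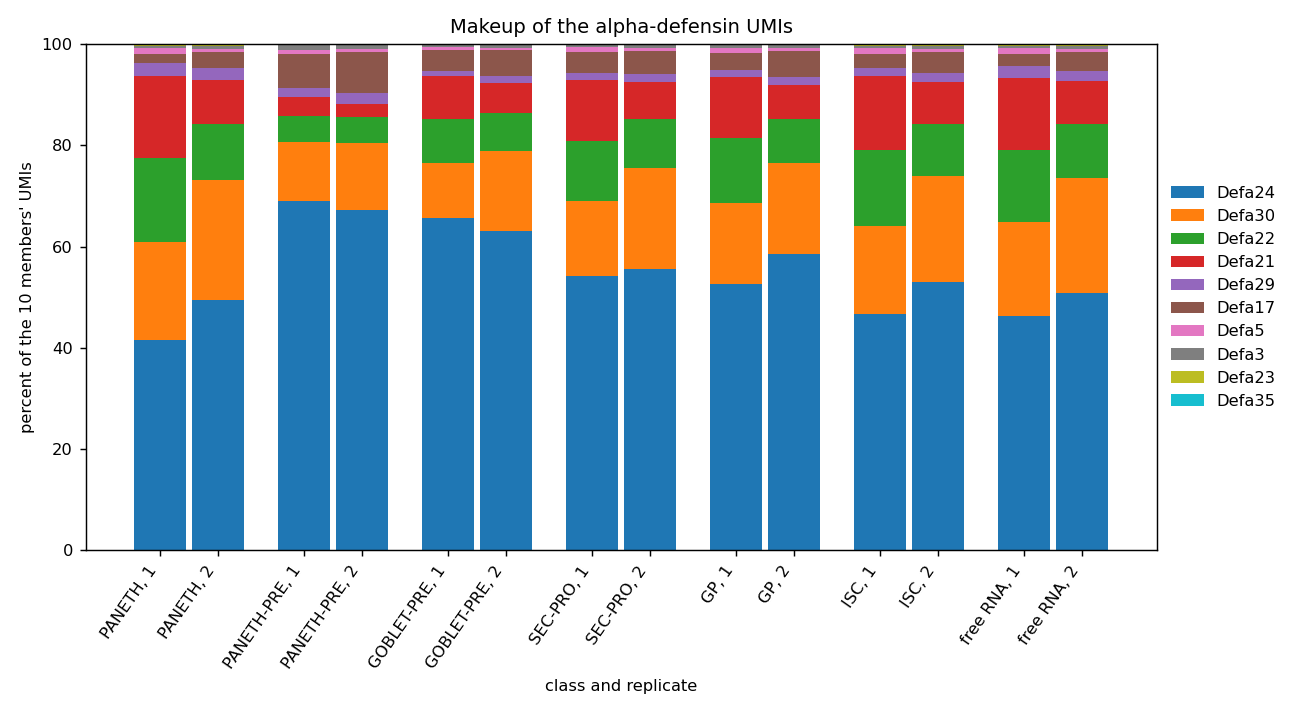
Share of each member in the members' summed UMIs (percent), in 6 classes and in free RNA, with 1 bar per library. PANETH (Defa24 at 41.5% and 49.4%) resembled free RNA (46.3% and 50.9%), while PANETH-PRE (68.9% and 67.1%) and GOBLET-PRE (65.7% and 63.1%) held more Defa24.

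Cells with at least 1 UMI of a scarce member followed the same order. With each cell thinned to 2000 UMIs, Defa3 was seen in 97.7% and 96.6% of PANETH cells and 61.5% and 60.0% of PANETH-PRE cells, against 7.38% and 12.5% of ISC cells, which serve as the background. Defa17 was seen in 100% and 100% of PANETH cells and 91.6% and 90.3% of PANETH-PRE cells, against 35.7% and 57.4% of ISC cells. Defa35 was seen in 58.5% (exact 95% interval 51.7 to 65.2) and 29.5% (24.96 to 34.3) of PANETH cells and 6.64% and 5.00% of PANETH-PRE cells, against 0.583% and 0.772% of ISC cells. For Defa35 the 2 PANETH libraries lay apart beyond counting error, and PANETH-PRE (exact intervals 3.76 to 10.7 and 2.83 to 8.11) lay above ISC (0.120 to 1.69 and 0.399 to 1.34). Without thinning, Defa35 was seen in 94.95% and 74.5% of PANETH cells, 16.8% and 13.9% of PANETH-PRE cells and 3.62% and 1.96% of ISC cells. Defa24 was seen in 98.8% and 99.9% of thinned ISC cells, so its presence alone did not separate the classes.

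Relative to the rest of the transcriptome, PANETH cells held more of all 10 members than PANETH-PRE cells. The classes were compared by edgeR's quasi-likelihood test on the 24 sums (class and library as terms, Benjamini-Hochberg adjustment over 10994 genes), with scaling factors taken from abundant genes. Because the authors named the classes from the expression of these same cells, the p-values are not independent evidence of a difference. All 10 members were called higher, where 5.36% of the 10994 genes were called higher and 2.79% lower at an adjusted p of 0.05. Their median log2 change was 4.17, against 0.09 over all genes.

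Defa21 had the highest log2 change of the members, 5.40 ± 0.43 (SE), with an adjusted p of 5.6e-06 by edgeR's quasi-likelihood test. Defa22 followed at 4.89 ± 0.45 (adjusted p = 2.03e-05, edgeR) and Defa35 at 4.76 ± 0.21 (adjusted p = 2.90e-12, edgeR). These were the 3 members that lay below free RNA in PANETH-PRE of both libraries. Defa23 (4.27 ± 0.27), Defa30 (4.23 ± 0.53) and Defa5 (4.11 ± 0.39) lay in the middle, and Defa29 was at 3.85 ± 0.56.

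The 4 members above the free RNA of 1 to 50 UMI barcodes in PANETH-PRE of both libraries, Defa29 among them, had the 4 lowest changes, and both statements rest on the same PANETH-PRE sums. Defa24 was higher in PANETH by 2.83 ± 0.49 (log2, SE; adjusted p = 0.00314, edgeR) and Defa3 by 2.39 ± 0.30 (adjusted p = 0.000256, edgeR). Defa17 was higher by 1.73 ± 0.41 (adjusted p = 0.0223, edgeR), the value nearest to the threshold. The Defa17 call was lost when library sizes left out alpha-defensin UMIs (log2 change 1.20, adjusted p = 0.0515, edgeR) and without the library term (1.79, adjusted p = 0.255, edgeR). With free RNA subtracted from each sum at the largest share the sum allows, 4 of 10 members were called by edgeR, and Defa17, Defa21, Defa22, Defa24, Defa29 and Defa30 were not, with adjusted p between 0.207 and 0.580. Their log2 changes were then 1.92 (Defa17), 5.78 (Defa21), 5.19 (Defa22), 3.01 (Defa24), 4.13 (Defa29) and 4.48 (Defa30), each above the value without subtraction, with SE of 1.33 to 2.79. Each member was then at 0 in 2 to 16 of the 24 sums.

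These changes depend on the scale, because the members fill so much of a PANETH sum. The scaling factors of PANETH were 0.230 and 0.256, so the fitted changes compare the members with other transcripts and not with all UMIs. As a plain share of UMIs, Defa17 differed by a log2 of -0.35 in replicate 1 and 0.23 in replicate 2. Per cell it was higher in PANETH by 1.19 and 1.62, and as a share of the members' sum it was lower, at -1.94 and -1.41. Its direction in PANETH thus turned with the scale, and the same held for Defa24 and Defa3 when the scale was the members' own sum. Defa24 stood at log2 differences of 0.86 and 1.20 as a share of UMIs, 2.40 and 2.58 per cell, and -0.73 and -0.44 as a share of the members. For Defa21 the 3 scales gave 3.67 and 3.39, 5.21 and 4.77, and 2.09 and 1.74, all higher in PANETH.

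**Figure D4:**
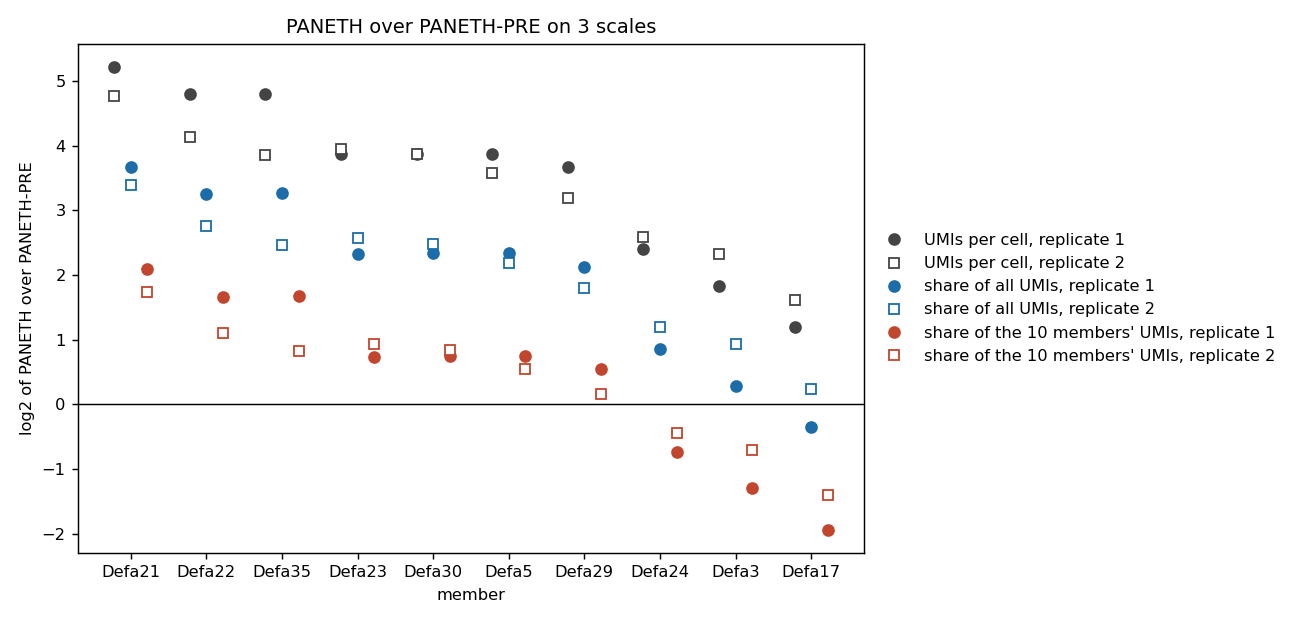
Log2 difference of PANETH over PANETH-PRE for each member on 3 scales (share of all UMIs, UMIs per cell, share of the members' sum), with 1 point per library. Per cell all members lay above 0, while within the members' sum Defa17 (-1.94 and -1.41), Defa3 (-1.30 and -0.71) and Defa24 (-0.73 and -0.44) lay below it.

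PANETH-PRE cells held more of all 10 members than GOBLET-PRE cells, precursors of the other main granule-filled lineage. All 10 were called higher, where 14.1% of genes were called higher and 10.0% lower (edgeR, adjusted p of 0.05), with a median log2 change of 4.18 against 0.09 over all genes. Defa3 led with 4.98 ± 0.35 (SE; adjusted p = 3.70e-07, edgeR), followed by Defa17 at 4.83 ± 0.47 (adjusted p = 7.93e-06, edgeR) and Defa29 at 4.83 ± 0.59 (adjusted p = 6.74e-05, edgeR). Defa17 had 14391 and 14912 CPM in PANETH-PRE, against 488 and 956 CPM in GOBLET-PRE. Neither library of PANETH-PRE overlapped with one of GOBLET-PRE for any member.

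Defa24 was higher in PANETH-PRE by 4.20 ± 0.52 (adjusted p = 7.07e-05, edgeR), and Defa23 (4.35), Defa5 (4.15), Defa30 (4.01), Defa35 (3.75) and Defa22 (3.41) were also called. Defa21 had the lowest change, 2.89 ± 0.39 (adjusted p = 0.000141, edgeR). In GOBLET-PRE the members lay at 3.61% to 19.8% of free RNA. With free RNA subtracted, 6 of 10 were called by edgeR, and Defa21, Defa22, Defa24 and Defa30 were not, with adjusted p between 0.138 and 0.259. The log2 changes of these 4 were then higher, at 4.45 for Defa21, 5.04 for Defa22, 4.82 for Defa24 and 5.74 for Defa30, and their SE were 2.18 to 2.98. Both comparisons share the PANETH-PRE sums, on opposite sides, so the order of members in 1 is not independent of the order in the other.

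Scaling by TMM over all genes gave 445 genes higher and 354 lower in PANETH over PANETH-PRE, in place of 589 and 307, and 1204 higher and 1440 lower in PANETH-PRE over GOBLET-PRE, in place of 1547 and 1102 (edgeR). All 10 members stayed higher in both.

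Most of the other alpha-defensins were called as well. Of the 18, 12 had enough counts to be tested, and 11 were called higher in PANETH than in PANETH-PRE, with a median log2 change of 2.66 and a range of 1.36 to 5.70. Gm14851, which RefSeq names Defa38, had the highest change, and AY761184 was not called (1.74, adjusted p = 0.115, edgeR). Gm14851 had 30127 and 38248 CPM in PANETH and 1688 and 3518 CPM in PANETH-PRE. In PANETH-PRE over GOBLET-PRE, 12 of 12 were called higher, with a median of 5.12 and a range of 3.13 to 6.72.

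Few genes that process and release the peptides or drive Paneth cell maturation were called between PANETH and PANETH-PRE, as was true of all genes. Of 20 such genes 18 were tested, and 0 were called higher and 2 lower in PANETH (edgeR, Benjamini-Hochberg), where 5.36% of all genes were called higher and 2.79% lower, with a median log2 change of -0.03; DESeq2 also called 0 higher, and 3 (Mmp7, Ephb3 and Bhlha15) were higher at an unadjusted p under 0.05 in edgeR. The 2 lower were Creb3l1, a transcription factor of secretory capacity (-1.25 ± 0.16, adjusted p = 1.94e-07, edgeR), and Spdef, which drives goblet and Paneth differentiation (-0.94 ± 0.15, adjusted p = 2.19e-06, edgeR). Mmp7, whose protease activates the peptides, had 2354 and 2942 CPM in PANETH, 5563 and 6440 CPM in PANETH-PRE and 1177 and 1262 CPM in GOBLET-PRE. On the scaled fit it differed between PANETH and PANETH-PRE by 0.64 ± 0.28 (adjusted p = 0.223, edgeR). With library sizes that leave out alpha-defensin UMIs, the median of all genes fell to -0.43 and 10 of the 18 genes were called lower, where 25.3% of all genes were.

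In PANETH-PRE over GOBLET-PRE, 8 of the 18 were called higher and 1 lower, where 14.1% of all genes were called higher and 10.0% lower, with a median of 0.05. Ephb3, a receptor that positions Paneth cells at the crypt base, was higher by 4.12 ± 0.18 (adjusted p = 2.52e-34, edgeR), and Mmp7 by 2.65 ± 0.29 (adjusted p = 2.24e-05, edgeR). Bhlha15, a factor of secretory cell architecture, was higher by 2.14, Sox9, which Paneth cells need, by 1.61, and Ern1, a sensor of stress in the endoplasmic reticulum, by 0.73. Xbp1, the effector of that stress response, was the 1 that was lower (-0.43 ± 0.11, adjusted p = 0.00129, edgeR) and is named after its value was seen. Without the library term 5 were called higher and 0 lower.

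Most genes for other proteins of Paneth granules were called with the members. Of 9 genes 7 were tested, and 6 were called higher in PANETH than in PANETH-PRE, against 5.36% of all genes, with a median of 2.59. Ang4, an antimicrobial ribonuclease, was higher by 3.66 ± 0.41 (adjusted p = 0.000100, edgeR), Mptx2, a pentraxin, by 3.35, the lectin Reg3g by 2.68, lysozyme Lyz1 by 2.59 ± 0.40 (adjusted p = 0.00148, edgeR) and intelectin Itln1 by 2.42. In PANETH-PRE over GOBLET-PRE, 5 of 7 were called higher, against 14.1% of all genes, with a median of 2.64, led by Mptx2 at 5.15 and Lyz1 at 5.03. Without the library term 2 of 7 (Lyz1 and Reg3g) and 3 of 7 were called, and with free RNA subtracted 3 and 4.

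Across the 24 sums, the genes whose level ran most closely with the members' summed level were Lyz1 (Pearson r = 0.989), Mptx2 (0.982), Itln1 (0.978), Pnliprp2 (0.964), Clps (0.964), Ang4 (0.926), Lamp2 (0.893) and Reg4 (0.885), of 3794 genes ranked. The sums share libraries and may share free RNA, so these are descriptions. Lyz1, Mptx2, Itln1 and Ang4 are Paneth granule genes, Pnliprp2 and Clps encode a lipase and the cofactor of pancreatic lipase, and Lamp2 is a lysosomal membrane protein. Reg4, a lectin, differed from the members: its log2 change was 0.27 in PANETH over PANETH-PRE (adjusted p = 0.578, edgeR) and 4.70 in PANETH-PRE over GOBLET-PRE (adjusted p = 2.92e-08, edgeR).

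The 2 libraries held different mixtures of members, in nearly every class and in free RNA. The share of the members' sum was lower in replicate 2 for Defa5 and Defa21 in 13 of 13 sums (12 classes and free RNA), for Defa22 in 12 of 13 and for Defa35 in 10 of 10 where a log2 ratio could be computed. Where Defa35 had no UMI in 1 library, its share was lower in replicate 2 in EC and TUFT but higher in EEC-PRE. The share was higher in replicate 2 for Defa17 and Defa30 in 13 of 13. In PANETH, scaled levels of replicate 2 over replicate 1 differed by a log2 of -1.32 for Defa35, -1.21 for Defa21, -1.11 for Defa5 and -0.93 for Defa22, which by size stood at the 99.2, 98.9, 98.6 and 97.2 percentile of 3814 genes. Defa24 (-0.08), Defa30 (-0.04), Defa23 (0.03) and Defa3 (0.04) hardly differed. Free RNA can carry the mixture of the whole preparation into every class, so agreement between classes of a library cannot be taken as independent. How much of the agreement came from free RNA was not tested. With 1 library on each side no test was possible, and whether the libraries differ by animal or by preparation cannot be told apart.

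**Figure D5:**
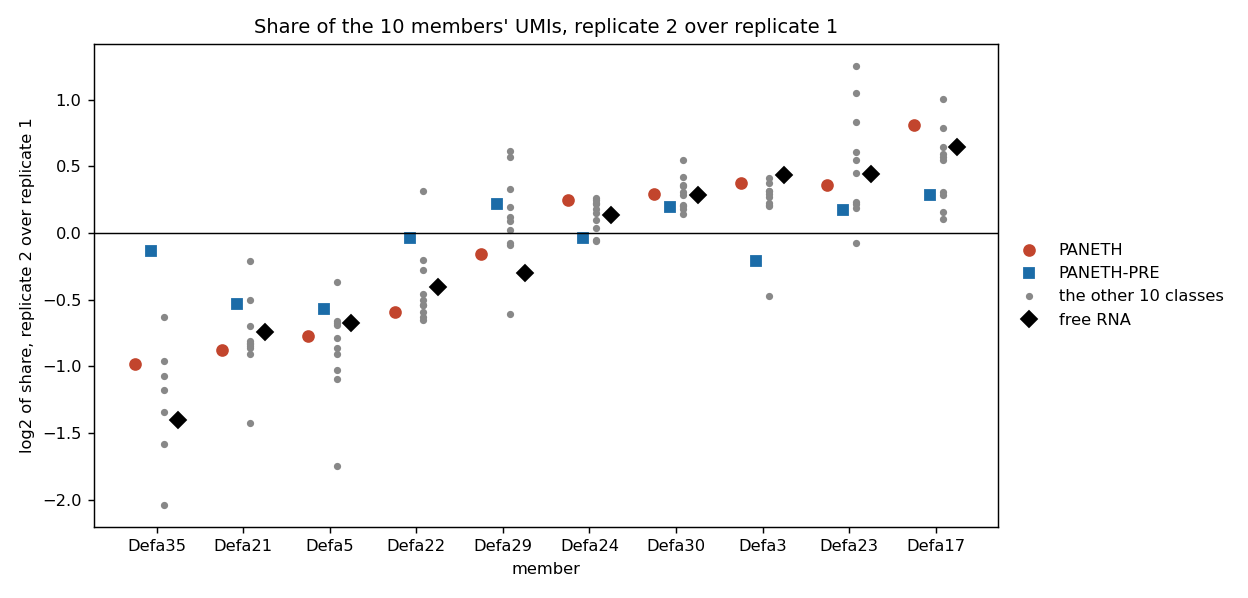
Log2 difference of replicate 2 over replicate 1 in each member's share of the members' sum, with 1 point per class and 1 for free RNA. Defa5 and Defa21 lay below 0 in 13 of 13 sums, and Defa17 and Defa30 above 0 in 13 of 13.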

How the data were processed

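Raw UMI counts of 31053 genes per barcode were deposited by the authors for 2 libraries, without a cell filter. The submitters' processing notes name mm10, STAR and Cell Ranger 3.0.2, and the headers of the matrices name the same version. The deposited cell table gives a class per cell, UMI and gene counts, and the percent of mitochondrial UMIs, per the file headers; no source used here says how classes, limits and doublets were handled. Some alpha-defensin copies are near-identical, and how reads shared by such copies were counted decides part of their values.

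UMIs of listed cells were added up per class and library, giving 24 sums. They were tested with edgeR 4.0.16 in R 4.3.3 (quasi-likelihood, robust, class and library as terms, filterByExpr, TMM factors from genes whose mean log2 CPM reached 6, 11 residual degrees of freedom), over 10994 genes, with Benjamini-Hochberg adjustment. DESeq2 1.42.0 was an alternative. Both classes of a comparison come from the same sort of the same library, so the library term pairs them. Library differences of PANETH and PANETH-PRE correlated at 0.507, those of PANETH-PRE and GOBLET-PRE at 0.558, and those of 66 pairs of classes at a median of 0.297, over 3814 genes. In simulated sums for PANETH against PANETH-PRE, run on 9663 genes, the fit called 50 of 50 genes raised by a log2 of 2 and 60.5% of 38 raised by 1, 81.4% of 43 lowered by 2 and 54.5% of 55 lowered by 1, and 0.0528% of 9477 unchanged genes. CPM were computed here from the sums, without scaling unless stated. Shares of cells carry exact (Clopper-Pearson) intervals from scipy 1.17.1, and thinned cells were reduced to 2000 UMIs, leaving out shallower ones. Sequences came from GENCODE M21 coding regions on GRCm38 and from RefSeq promoters, aligned with Biopython 1.88.

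The members, the gene lists and the tests were chosen with earlier results of these data known. Named genes are the 10 members, of each pathway list those called with the 5 changes of largest size per comparison, and the 8 genes most like the members' sum over the sums. Alternatives were 2 other scalings, library sizes without alpha-defensin UMIs, no filter, no library term, thinned cells, free RNA subtracted, cells with many UMIs left out, DESeq2, other free RNA barcodes and each library alone.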

Additional observations from a re-analysis of the deposited data

Results flagged for a closer look

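The members were also present in barcodes that the authors did not list as cells and that held more than 50 UMIs. They took 11.5% of the UMIs of such barcodes in replicate 1 and 18.4% in replicate 2, in data outside the class comparisons. The share in listed cells was 11.4% and 13.1%, and in free RNA 10.4% and 17.5%. Among these barcodes, 52 of 3141 with at least 1000 UMIs in replicate 1 and 19 of 1571 in replicate 2 drew at least 50% of their UMIs from the members. They had a median of 1911 and 2615 UMIs but only 289 and 362 genes. In replicate 1, 41 of the 52 had at most 600 genes and 11 had at least 3000, and in replicate 2 all 19 had at most 600. Their cause was not tested.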

How the results depend on the processing

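No member's fitted change was reversed under any of the alternatives run. This leaves out unfitted scales: as a plain share of UMIs, Defa17 in PANETH over PANETH-PRE was at a log2 of -0.35 and 0.23. Over the 9 alternatives with a test, 82 of 90 member values kept their call in PANETH over PANETH-PRE. In PANETH-PRE over GOBLET-PRE 86 of 90 did. The log2 changes were 1.20 to 6.27 and 1.99 to 10.2. With free RNA subtracted, 4 and 6 members were called in place of 10 and 10. Without the library term as a block, 9 members were called in the first comparison (all but Defa17) and 10 in the second, and over all genes 197 were higher and 86 lower in the first and 852 and 528 in the second; the block changed no other member's call. Over all genes, thinned cells gave 172 higher and 133 lower of 8100 tested in the first comparison and 716 and 598 in the second, library sizes without alpha-defensin UMIs 162 and 2786 in the first, and DESeq2's test 388 and 294. One library alone leaves no residual degrees of freedom, so it gives values with no test: median log2 changes of the members of 4.21 and 4.08 in the first comparison and 4.68 and 3.59 in the second. The median of both libraries, 4.17 in the first, was 3.66 with library sizes without alpha-defensin UMIs, 4.51 in thinned cells, 4.40 with free RNA subtracted and 5.095 without cells of high UMI number, and 4.18 in the second was 5.77 with free RNA subtracted and 3.34 without those cells. Of the members in PANETH-PRE, 4 stood above free RNA in every library, 4 to 7 with 1 library left out, and 1 when barcodes of 10 to 100 UMIs served as free RNA. The members' share in PANETH-PRE, 19.7%, was 14.5% without cells of high UMI number and 14.6% in thinned cells. The log2 ratio of the members' sum in PANETH over PANETH-PRE, 1.62, was 3.39 with scaling, 2.06 without the high cells and 1.95 in thinned cells. The share of cells with Defa35, 44.0% in PANETH, was 17.2% when 2 UMIs were asked for, and in PANETH-PRE 5.82%, 2.66% at 1000 UMIs and 0.443% with 2 UMIs. For Defa17 in PANETH-PRE it was 90.96%, 82.9% and 81.1%. The causes of these shifts were not tested. The share in GOBLET, 2.11%, was 1.37% without the cell with most member UMIs in each library, an alternative chosen after seeing the data. The number of cells limits Defa35: 0 of 57 EEC-PRE cells with a UMI allow a share of such cells of up to 5.26%.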

Other observations

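Within GOBLET-PRE, the few cells with the highest members' share had another mixture than the rest, and GP and SEC-PRO showed the same. The cells above the 95th percentile of the members' share, 116 in replicate 1 and 74 in replicate 2, drew 7.61% and 9.93% of their UMIs from the members, and Defa24 made up 88.8% and 80.1% of these. Defa21 made up 1.61% and 2.35%, and Defa22 1.54% and 2.91%. In the cells at or below the median (1159 and 733), Defa24 made up 46.5% and 52.1%, close to free RNA. The cells above the 95th percentile held 15160 and 14010 CPM of Muc2, the main goblet mucin. They also held 1604 and 3417 CPM of Lyz1 and 2394 and 2269 CPM of Mmp7. Above the 95th percentile, the mixture differed from free RNA by 21.2% and 23.3% in GP and by 33.6% and 11.8% in SEC-PRO. Defa24 made up 65.1% and 71.1% there in GP and 75.5% and 62.3% in SEC-PRO. At or below the median, GP differed by 1.64% and 2.48% and SEC-PRO by 1.56% and 1.14%. Cells were split here by the measure described, so the values are a description with no test.

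Within PANETH-PRE the mixture also ran with the share. In cells at or below the median (113 and 158), the members took 2.77% and 3.17% of UMIs, and Defa17 made up 12.7% and 11.5% and Defa24 71.4% and 68.7% of them. In cells above the 95th percentile (12 and 16), the members took 53.6% and 46.6%, Defa17 made up 3.29% and 4.79%, and Defa30 20.3% and 22.0%. Within PANETH, Defa21 made up 20.6% and 14.2% in the cells above the 95th percentile (11 and 20) and 13.3% and 6.79% in cells at or below the median (109 and 196), and Defa24 made up 37.5% and 44.5%, against 44.3% and 51.8%.

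In 4 sums a few cells held much of the members' UMIs. In GOBLET of replicate 1, 1 of 42 cells held 58.6% of them. In TUFT of replicate 1, 2 cells held 48.9%, in ENTERO-PRO of replicate 2, 2 cells held 50.2%, and in EC of replicate 2, 1 cell held 44.0%.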
